A study of Mus musculus with 32 samples.

Results

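The 51 genes described here code for the lysosome and for the transcription factors that control it. They were chosen by symbol, as a list of lysosomal hydrolases, membrane proteins, proton pump subunits and the factors Tfeb, Tfe3 and Mitf, and all 51 were found among the 24538 genes of the expression table. The RNA came from S49.1 cells, a mouse T lymphoma line that dies when given glucocorticoids. S49 (Bcl-2) cells carry the G418 (neomycin) resistance gene and, in addition, the Bcl-2 proto-oncogene, whose product blocks apoptosis. S49 (Neo) cells carry the resistance gene alone, brought in by a retrovirus, so that both lines share it. Each line was given 250 nM dexamethasone (dex), a synthetic glucocorticoid, or vehicle (control) for 24 or 48 h, which makes 8 groups with 4 libraries each, 32 libraries in all. Nothing in the labels says that replicates of a group were separate cultures, so p-values measure the spread between these libraries, which may be technical. Whether either line is a single clone is not given in the sources used here, and any difference between the lines other than Bcl-2 cannot be told apart from Bcl-2 itself.

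Lysosomes are acidic organelles in which hydrolases break down proteins, lipids, glycans and nucleic acids delivered by endocytosis and autophagy. A proton pump, the V-ATPase, keeps the lumen acidic, and heavily glycosylated membrane proteins line it. TFEB, TFE3 and MITF are related helix-loop-helix factors that bind a short E-box element in the promoters of many lysosomal genes. Their activity is set largely by where the protein is in the cell: when the kinase mTORC1 is active on the lysosome, it phosphorylates TFEB and keeps it in the cytoplasm, and RNA levels do not show this.

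All values are the normalized log2 values deposited by the authors, and a change is the mean log2 value with dex minus the mean in the matching controls, given with its standard error (SE, n = 4 libraries in each group). A gene is called higher or lower where the adjusted p over all 11562 genes tested was below 0.05. Levels are compared between groups for 1 gene only, since the values are not scaled to transcript length. In bulk RNA, fewer cells that express a gene and less RNA per cell cannot be told apart.

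Of the 51 genes, 44 had a mean above the filter for low values, a mean of 3.46 on the deposited scale, and were tested. This is log2 of 10 plus 1, but the deposited values go below 0, which a log2 of reads plus 1 cannot, so the filter does not stand for a number of reads and a fold is 2 to the power of a difference on this scale. The other 7 are Mitf, Hexa, Ctsa, Ctsh, Ctss, Arsb and Cd63. Mitf lay between -2.36 and -2.35 in the 32 libraries, Hexa between -1.31 and -1.21, Cd63 between -0.06 and 0.16, Ctsh at 0.00, Ctsa between 0.40 and 0.62 and Arsb between 2.20 and 3.08. A value near this floor does not show that a gene is silent, because Ndufs5 and Rpl26, which nearly every cell uses, averaged -2.14 and -0.41 in the same table. Ctss, a cathepsin of antigen-presenting cells, had a mean under the filter and ran between 2.71 and 3.90. Reads of overlapping transcripts may be shared for Glb1 and Ctsd, whose exons overlap those of another coding gene on the same strand, and for Ctsb, Ctsz, Idua, Sgsh, Npc1, Ppt1, Lamp1, Grn and Atp6v1h, which overlap one on the other strand, as the use of strand in counting is not given in the sources used here.

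Bcl2 and cell type markers were read as a check of the labels. Bcl2 lay between 10.48 and 11.45 in the S49 (Bcl-2) libraries and between 7.70 and 8.62 in the S49 (Neo) libraries, and 14 of 15 T lymphocyte markers were above the filter. The reads were aligned to the mouse genome, while the study stained Bcl-2 with an antibody against the human protein. Whether the Bcl2 values count the added gene, the cells' own gene or both is not known. Among 18 macrophage and granulocyte markers, 4 passed the filter (Lyz2, Itgam, Mrc1 and C1qc), while Csf1r, Adgre1 and Cd14 averaged -1.15, -1.10 and -2.36 and stayed at the floor. The summed level of this list was 9.95 to 10.27 (log2) in S49 (Bcl-2) cells after 48 h of dex and 10.02 to 10.09 in their controls, and its part in the results was not tested. Within the list C1qc was higher with dex in these cells (a mean of 6.42 at 48 h with dex and 2.90 in controls) and Lyz2 lower (5.04 with dex and 7.73 in controls). C1qc had a mean over the filter only through the dex libraries of S49 (Bcl-2) cells, so its values are a description, with no test. One library stood apart: replicate 3 of S49 (Bcl-2) cells given dex for 24 h differed from the mean of its 3 partners by 0.766 (SD over genes), where its partners differed by 0.263 to 0.313 and libraries of the other 7 groups by 0.107 to 0.208. Its deviation ran with transcript GC content (Spearman's rho 0.801 across 11320 genes), so called values at 24 h in this line are also given without it where the call changed or the value moved by over 1.5 times.

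Dex raised the larger part of the lysosomal genes in both lines. In S49 (Bcl-2) cells at 24 h, 32 of the 44 genes tested were higher and 3 lower, where 32.5% of all genes tested were called higher and 35.1% lower. At 48 h, 28 were higher and 5 lower in these cells (33.9% and 35.2% of all genes). S49 (Neo) cells had 27 higher and 3 lower at 24 h (25% and 25.5% of all genes), and 24 were higher and 9 lower at 48 h (27.3% and 28% of all genes). The median change of the 44 genes was 0.41 and 0.46 in S49 (Bcl-2) cells at 24 and 48 h, and 0.33 and 0.28 in S49 (Neo) cells, while the median over all genes tested lay between -0.04 and 0.00 in these 4 comparisons. All 4 dex libraries lay above all 4 controls for 24 and 31 of the 44 genes in S49 (Bcl-2) cells at 24 and 48 h (26.3% and 35.7% of all genes), and for 29 and 25 in S49 (Neo) cells (30.2% and 31.2%). Without replicate 3 of the 24 h dex group, 33 genes were higher and 4 lower in S49 (Bcl-2) cells at 24 h. The counts of higher genes in all 4 comparisons include Sgsh, which passed the filter only through its S49 (Neo) dex libraries.

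**Figure D1:**
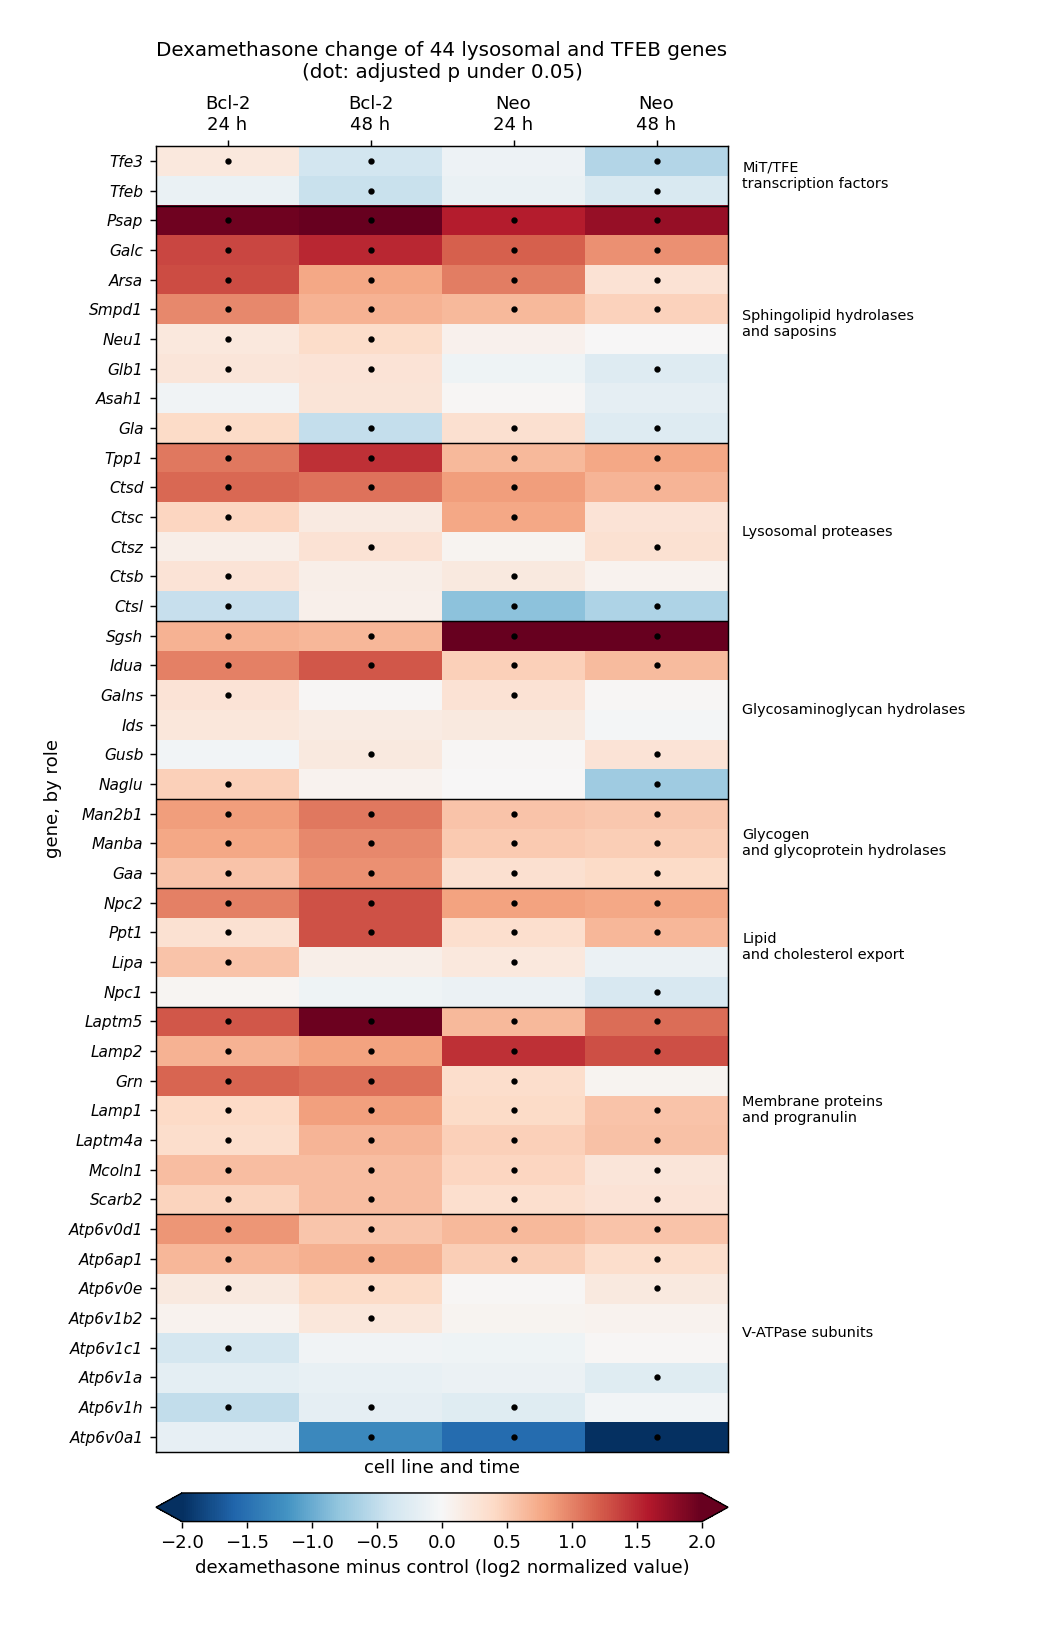
Change in log2 normalized value with dex against control for the 44 lysosomal and TFEB genes tested, 1 gene in each row by role and 1 line and time in each column, with red for higher and blue for lower with dex (colours end at -2 and 2) and a dot where the adjusted p was below 0.05. Psap, Galc, Tpp1, Ctsd, Laptm5 and Lamp2 are red in all 4 columns, and Atp6v0a1 is blue.

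Call by call, 21 of the 44 genes were higher in all 4 comparisons, against 15.5% of all genes tested, and none was lower in all 4, against 13.3% of all genes. The 21 are Psap, Galc, Arsa, Smpd1, Tpp1, Ctsd, Idua, Sgsh, Gaa, Manba, Man2b1, Npc2, Ppt1, Lamp1, Lamp2, Scarb2, Mcoln1, Laptm4a, Laptm5, Atp6v0d1 and Atp6ap1, and of these Sgsh passed the filter only through its S49 (Neo) dex libraries, so its calls are no test. A further 10 genes were higher in 1 to 3 comparisons and lower in none. Tfeb, Ctsl, Npc1, Atp6v0a1, Atp6v1a, Atp6v1c1 and Atp6v1h were lower in at least 1 and higher in none, and Tfe3, Gla, Glb1 and Naglu were called in both directions. Asah1, the acid ceramidase, and Ids, which removes sulfate from glycosaminoglycans, were called in none of these comparisons, with changes of -0.18 to 0.26 for Asah1 and -0.05 to 0.23 for Ids. Without replicate 3 of the 24 h dex group, both were called higher in S49 (Bcl-2) cells at 24 h, Asah1 at 0.21 and Ids at 0.49.

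RNA of the transcription factors did not rise with that of the hydrolases. Tfeb, at chr17:47737030-47792419 on the plus strand in GRCm38, stood at 9.60, 9.60, 9.55 and 9.57 in S49 (Bcl-2) cells after 48 h of dex and at 9.99, 9.89, 10.07 and 10.17 in their controls. The S49 (Neo) cells at 48 h stood at 9.97, 9.82, 9.86 and 10.10 with dex and at 10.29, 10.01, 10.27 and 10.42 in controls. The groups were separate in S49 (Bcl-2) cells and overlapped in S49 (Neo) cells, and Tfeb fell in both, by 0.45 ± 0.10 (adjusted p = 0.000254) and by 0.31 ± 0.10 (adjusted p = 0.00986). At 24 h Tfeb stood at 9.55, 9.48, 10.07 and 9.46 with dex in S49 (Bcl-2) cells, against 9.79, 9.64, 9.78 and 9.89 in controls, and at 9.96, 9.89, 9.93 and 10.00 with dex in S49 (Neo) cells, against 10.14, 9.96, 10.04 and 10.15. Neither 24 h change was called, at -0.13 ± 0.10 in S49 (Bcl-2) cells and -0.13 ± 0.10 in S49 (Neo) cells. The high value of 10.07 is the library that stood apart, and without it the S49 (Bcl-2) change at 24 h was -0.28 (adjusted p = 0.00172). Tfeb controls had a higher mean at 48 h than at 24 h in both lines. In S49 (Bcl-2) cells the means at 24 and 48 h were 9.77 and 10.03 in controls and 9.64 and 9.58 with dex. Those of S49 (Neo) cells were 10.07 and 10.25 in controls and 9.94 and 9.94 with dex.

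Tfe3 values in S49 (Bcl-2) cells were 10.42, 10.57, 10.54 and 10.48 at 48 h with dex, against 10.64, 10.84, 10.95 and 11.05 in controls. The 48 h values of S49 (Neo) cells were 10.20, 10.16, 10.16 and 10.17 with dex and 10.77, 10.63, 10.78 and 10.85 in controls. The groups did not overlap in either line, and Tfe3 fell by 0.37 ± 0.08 (adjusted p = 0.000128) and by 0.59 ± 0.08 (adjusted p = 2.15e-07). At 24 h the values were 10.41, 10.46, 10.81 and 10.40 with dex and 10.28, 10.22, 10.43 and 10.31 in controls of S49 (Bcl-2) cells. The S49 (Neo) cells had 10.21, 10.20, 10.19 and 10.25 with dex and 10.32, 10.23, 10.32 and 10.40 in controls at 24 h. The dex levels at 24 and 48 h lay close together in each line, while the 48 h controls lay above the 24 h controls in every library of both lines. Tfe3 was called higher at 24 h in S49 (Bcl-2) cells (0.21 ± 0.08, adjusted p = 0.0199), a call that was lost without the library that stood apart (0.11, adjusted p = 0.122) and with GC-corrected values (adjusted p = 0.304). Its change in S49 (Neo) cells at 24 h was -0.11 ± 0.08 and was not called.

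The E-box that the 3 factors bind was looked for in promoter windows from RefSeq (GRCm38.p6), each running from 250 bases before to 50 bases after an annotated start. Windows were matched by symbol for 43 of the 51 genes. The extended E-box TCACGTGA, which reads the same on both strands, was found in 7 of the 43 genes (16.3%) and in 304 of 27025 genes in all (1.12%). The shorter E-box CACGTG, which lies inside the extended one, was found in 14 of the 43 (32.6%), against 8.09% of all genes. A glucocorticoid response element, written as the arms GNACA and TGTNC with NNN between them and also the same on both strands, was found in none of the 43 genes and in 0.537% of all genes. Such a match is a description of the letters in these windows and not a measured site. The genes were chosen as lysosomal and TFEB genes, so the E-box shares are no test of the list. An element as rare as the glucocorticoid response element can be missing from 43 genes, so its absence was not read as a result.

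The stretches around the extended E-box in the 6 genes that were also tested are given to show the element these promoters share, 5′ to 3′ on the strand of the gene, with the element in capitals. They lie in the build GRCm38.p6 at chrX:134601157-134601255 (minus strand) for Gla, chr7:142387883-142387962 (minus) for Ctsd, chr8:3500437-3500516 (plus) for Mcoln1, chr8:105566025-105566104 (minus) for Atp6v0d1, chr17:26676362-26676441 (plus) for Atp6v0e and chr16:44139348-44139427 (minus) for Atp6v1a.
Gla: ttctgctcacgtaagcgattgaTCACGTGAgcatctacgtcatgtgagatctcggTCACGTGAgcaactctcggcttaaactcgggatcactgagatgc
Ctsd: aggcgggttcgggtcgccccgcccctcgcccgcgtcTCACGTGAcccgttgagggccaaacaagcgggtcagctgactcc
Mcoln1: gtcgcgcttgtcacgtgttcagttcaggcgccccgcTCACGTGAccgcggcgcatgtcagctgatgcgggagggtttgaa
Atp6v0d1: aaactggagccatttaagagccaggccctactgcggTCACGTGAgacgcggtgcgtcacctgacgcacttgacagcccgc
Atp6v0e: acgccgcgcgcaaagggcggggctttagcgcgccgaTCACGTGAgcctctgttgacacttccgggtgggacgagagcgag
Atp6v1a: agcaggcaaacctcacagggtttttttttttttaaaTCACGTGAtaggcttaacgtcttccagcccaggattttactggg
The element begins 99 bases before the start of Ctsd, 46 before that of Mcoln1, 4 before that of Atp6v0d1, 132 before that of Atp6v1a and 2 bases after that of Atp6v0e, and Gla holds it at 228 and again at 195 bases before its start. Of these 6 genes, 4 were higher and 1 lower with dex in S49 (Bcl-2) cells at 48 h, and of the 31 genes tested with a window and no match, 23 were higher and 3 lower. In S49 (Neo) cells at 48 h, 4 of the 6 were higher and 2 lower, against 20 higher and 6 lower of the 31. Over all genes tested, 33.9% were higher and 35.2% lower in S49 (Bcl-2) cells at 48 h, and 27.3% and 28% in S49 (Neo) cells. The shares with and without the element were not tested against each other.

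Among genes of sphingolipid breakdown, Psap and Galc had the largest mean changes. Psap, at chr10:60277627-60302597 on the plus strand in GRCm38, codes for prosaposin, which is cut into the saposins, small proteins that lift sphingolipids out of membranes for their hydrolases. It stood at 16.81, 16.83, 17.11 and 16.92 in S49 (Bcl-2) cells after 24 h of dex, against 14.87, 14.95, 15.02 and 15.05 in controls. At 48 h these cells had 17.54, 17.54, 17.48 and 17.54 with dex and 15.01, 15.06, 15.14 and 15.23 in controls. The 8 dex libraries of this line lay at 16.81 or above and the 8 controls at 15.23 or below. Psap in S49 (Neo) cells was at 16.65, 16.60, 16.66 and 16.62 after 24 h of dex and at 15.05, 15.06, 15.01 and 15.13 in controls. At 48 h it was at 16.85, 16.80, 17.03 and 16.91 with dex and at 15.12, 15.08, 15.16 and 15.25 in controls. Every dex library lay more than 1 unit of log2 above every control of its line and time. The change was 1.94 ± 0.06 and 2.42 ± 0.06 in S49 (Bcl-2) cells at 24 and 48 h, or 3.85-fold and 5.33-fold, and 1.57 ± 0.06 and 1.74 ± 0.06 in S49 (Neo) cells, or 2.97-fold and 3.35-fold (adjusted p = 1.73e-18 or below in each). No other gene of the 44 rose as far in S49 (Bcl-2) cells at either time.

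Galc, the enzyme that splits galactose from galactosylceramide, stood at 10.83, 10.90, 10.28 and 11.12 after 24 h of dex in S49 (Bcl-2) cells and at 9.37, 9.41, 9.42 and 9.58 in controls. At 48 h the values were 11.39, 11.33, 11.40 and 11.55 with dex and 9.76, 9.93, 9.89 and 10.09 in controls. S49 (Neo) cells had 10.46, 10.43, 10.40 and 10.65 with dex and 9.30, 9.18, 9.27 and 9.39 in controls at 24 h, and 10.67, 10.69, 10.59 and 10.76 with dex and 9.77, 9.67, 9.64 and 9.96 in controls at 48 h. The groups were separate in all 4 comparisons, and the library that stood apart, at 10.28, was the lowest of the 4 dex libraries at 24 h in S49 (Bcl-2) cells. Galc rose by 1.34 ± 0.11 and 1.5 ± 0.11 in S49 (Bcl-2) cells at 24 and 48 h and by 1.20 ± 0.11 and 0.92 ± 0.11 in S49 (Neo) cells.

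The other sphingolipid genes tested changed less, or in both directions. Arsa, which removes sulfate from sulfatide, was higher in all 4 comparisons, by 1.31 and 0.77 in S49 (Bcl-2) cells and 1.02 and 0.29 in S49 (Neo) cells at 24 and 48 h. Smpd1, the acid sphingomyelinase, was higher in all 4 as well, by 0.46 to 0.96. Gla, the alpha-galactosidase that acts on globotriaosylceramide, was higher at 24 h in both lines (0.39 and 0.33) and lower at 48 h in both (-0.48 and -0.26). Glb1, the beta-galactosidase, was higher at both times in S49 (Bcl-2) cells (0.24 and 0.27) and lower at 48 h in S49 (Neo) cells (-0.26). Neu1, a sialidase, was higher in S49 (Bcl-2) cells at both times (0.21 and 0.36), with changes of 0.09 and 0.01 in S49 (Neo) cells that were not called. The 24 h change of Neu1 in S49 (Bcl-2) cells was 0.12 without the library that stood apart. Over the 8 genes of this group that were tested, 7 were higher and none lower in S49 (Bcl-2) cells at 24 h, 6 and 1 at 48 h, and 5 and none, then 4 and 2, in S49 (Neo) cells at 24 and 48 h. In the same order, the shares of all genes were 32.5% and 35.1%, 33.9% and 35.2%, 25% and 25.5%, and 27.3% and 28%.

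Among 6 proteases tested, those that rose in every comparison were Tpp1 and Ctsd. Tpp1, which removes tripeptides from the ends of proteins, stood at 11.81, 11.90, 11.90 and 12.11 after 24 h of dex in S49 (Bcl-2) cells, against 10.82, 10.87, 10.91 and 10.91 in controls. The 48 h values were 12.60, 12.52, 12.53 and 12.64 with dex and 11.05, 11.06, 11.17 and 11.20 in controls. In S49 (Neo) cells the values were 11.33, 11.39, 11.36 and 11.43 with dex and 10.74, 10.72, 10.74 and 10.72 in controls at 24 h, and 11.64, 11.65, 11.73 and 11.68 with dex and 10.86, 10.88, 10.89 and 10.99 in controls at 48 h. No dex library overlapped a control. The increase was 1.05 ± 0.05 and 1.46 ± 0.05 in S49 (Bcl-2) cells, and 0.65 ± 0.05 and 0.77 ± 0.05 in S49 (Neo) cells, at 24 and 48 h.

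Ctsd, the main aspartic protease of the lysosome, had values of 12.86, 12.80, 13.23 and 12.89 in S49 (Bcl-2) cells at 24 h with dex and 11.71, 11.74, 11.77 and 11.94 in controls. After 48 h these cells had 13.32, 13.37, 13.25 and 13.24 with dex and 11.98, 12.19, 12.36 and 12.33 in controls. S49 (Neo) cells had 12.84, 12.78, 12.88 and 12.90 with dex at 24 h and 13.01, 12.99, 13.16 and 13.12 at 48 h, against 11.97, 12.02, 11.96 and 12.14 and 12.26, 12.31, 12.49 and 12.51 in the controls of each time. The groups were again separate throughout, and Ctsd rose by 1.15 ± 0.08 and 1.08 ± 0.08 in S49 (Bcl-2) cells and by 0.83 ± 0.08 and 0.68 ± 0.08 in S49 (Neo) cells.

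Ctsl, a cysteine cathepsin, went the other way. It fell in S49 (Bcl-2) cells at 24 h (-0.46 ± 0.06) and in S49 (Neo) cells at 24 and 48 h (-0.82 ± 0.06 and -0.62 ± 0.06), while its change in S49 (Bcl-2) cells at 48 h was 0.11 ± 0.06 and was not called. Ctsc, the dipeptidyl peptidase that activates granule proteases, was higher at 24 h in both lines, by 0.43 in S49 (Bcl-2) cells (0.66 without the library that stood apart) and 0.77 in S49 (Neo) cells. Ctsb, another cysteine cathepsin, was higher at 24 h by 0.27 in S49 (Bcl-2) cells and 0.20 in S49 (Neo) cells, and neither gene was called at 48 h. Ctsz, a carboxypeptidase, was higher at 48 h in both lines (0.29 and 0.30) and not called at 24 h.

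The genes for enzymes that cut glycosaminoglycans moved unevenly. Sgsh, at chr11:119343425-119355536 on the minus strand, removes sulfate from heparan sulfate, and had a mean over the filter only through the dex libraries of S49 (Neo) cells, so its values are a description, with no test. It stood at 3.77, 3.30, 3.85 and 3.44 with dex and at 2.87, 2.92, 3.0 and 2.77 in controls of S49 (Bcl-2) cells at 24 h, and at 3.78, 3.53, 3.36 and 3.83 with dex and 2.92, 3.01, 3.01 and 2.92 in controls at 48 h. Sgsh in S49 (Neo) cells stood at 5.58, 5.18, 5.43 and 5.28 with dex and 3.01, 2.95, 3.03 and 3.08 in controls at 24 h. At 48 h the S49 (Neo) values were 5.58, 5.28, 5.53 and 5.43 with dex and 2.95, 2.68, 2.88 and 2.97 in controls. The dex libraries of S49 (Neo) cells lay above every dex library of S49 (Bcl-2) cells, while the controls of the lines overlapped. The means with dex lay above those of controls by 0.70 and 0.66 in S49 (Bcl-2) cells and by 2.35 and 2.59 in S49 (Neo) cells at 24 and 48 h.

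Idua, the iduronidase of heparan and dermatan sulfate breakdown, had 8.37, 8.41, 8.33 and 8.66 with dex and 7.44, 7.42, 7.33 and 7.56 in controls of S49 (Bcl-2) cells at 24 h. At 48 h the values were 9.03, 8.98, 8.98 and 9.11 with dex and 7.87, 7.65, 7.69 and 7.95 in controls. Idua values in S49 (Neo) cells were 8.22, 8.30, 8.2 and 8.31 with dex and 7.75, 7.79, 7.74 and 7.85 in controls at 24 h, and 8.64, 8.61, 8.86 and 8.63 with dex and 8.04, 7.94, 8.06 and 8.19 in controls at 48 h. Without overlap in any comparison, Idua rose by 1.01 ± 0.08 and 1.23 ± 0.08 in S49 (Bcl-2) cells and by 0.48 ± 0.08 and 0.63 ± 0.08 in S49 (Neo) cells. Naglu, a glucosaminidase that acts on heparan sulfate, was higher at 24 h in S49 (Bcl-2) cells (0.48) and lower at 48 h in S49 (Neo) cells (-0.71). Gusb, the beta-glucuronidase, was higher at 48 h in both lines (0.20 and 0.28), and Galns, a sulfatase, at 24 h in both (0.27 and 0.29). The Galns call in S49 (Bcl-2) cells was lost without the library that stood apart (0.14, adjusted p = 0.115).

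All 3 hydrolases of glycogen and glycoproteins were higher in all 4 comparisons, as were 15.5% of all genes tested. Man2b1, the lysosomal alpha-mannosidase, was at 12.48, 12.42, 12.79 and 12.63 with dex and at 11.76, 11.70, 11.69 and 11.85 in controls of S49 (Bcl-2) cells at 24 h, and at 12.91, 12.86, 12.79 and 12.93 with dex and 11.76, 11.78, 11.79 and 11.94 in controls at 48 h. Man2b1 in S49 (Neo) cells was at 12.30, 12.26, 12.22 and 12.35 with dex and 11.72, 11.67, 11.69 and 11.80 in controls at 24 h, and at 12.32, 12.24, 12.41 and 12.45 with dex and 11.85, 11.66, 11.81 and 11.95 in controls at 48 h. The groups were separate, with increases of 0.83 ± 0.07 and 1.06 ± 0.07 in S49 (Bcl-2) cells and 0.56 ± 0.07 and 0.54 ± 0.07 in S49 (Neo) cells. Manba, the beta-mannosidase, had 9.87, 9.91, 9.68 and 10.15 with dex and 8.91, 9.19, 9.18 and 9.25 in controls of S49 (Bcl-2) cells at 24 h, and 10.27, 10.23, 10.26 and 10.39 with dex and 9.32, 9.34, 9.21 and 9.43 in controls at 48 h. The S49 (Neo) values of Manba were 9.74, 9.70, 9.83 and 9.78 with dex and 9.18, 9.24, 9.24 and 9.27 in controls at 24 h, and 10.01, 9.90, 9.99 and 10.10 with dex and 9.53, 9.34, 9.52 and 9.64 in controls at 48 h. They too were separate, and Manba rose by 0.77 ± 0.08 and 0.96 ± 0.08 in S49 (Bcl-2) cells and by 0.53 ± 0.08 and 0.49 ± 0.08 in S49 (Neo) cells. Gaa, the acid glucosidase of glycogen, rose by 0.58 and 0.92 in S49 (Bcl-2) cells and by 0.31 and 0.39 in S49 (Neo) cells.

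In the group of lipid and cholesterol handling, the soluble cholesterol carrier rose and its membrane partner did not. Npc2, which passes cholesterol to Npc1 for export, stood at 14.00, 13.99, 14.37 and 14.16 with dex and at 13.03, 13.09, 13.15 and 13.21 in controls of S49 (Bcl-2) cells at 24 h, and at 14.68, 14.74, 14.68 and 14.77 with dex and 13.30, 13.39, 13.50 and 13.58 in controls at 48 h. The S49 (Neo) values were 14.06, 14.05, 14.12 and 14.13 with dex and 13.24, 13.31, 13.25 and 13.34 in controls at 24 h, and 14.29, 14.33, 14.42 and 14.39 with dex and 13.48, 13.54, 13.65 and 13.68 in controls at 48 h. There was no overlap, and Npc2 rose by 1.01 ± 0.07 and 1.27 ± 0.07 in S49 (Bcl-2) cells and by 0.80 ± 0.07 and 0.77 ± 0.07 in S49 (Neo) cells. Npc1 was lower in S49 (Neo) cells at 48 h (-0.32 ± 0.06), and its other changes, from -0.12 to 0.03, were not called. Lipa, the acid lipase that frees cholesterol from its esters, was higher at 24 h in both lines (0.57 and 0.21) and not called at 48 h.

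Ppt1, the thioesterase that takes fatty acids off proteins, had 12.13, 12.03, 12.08 and 12.14 with dex and 10.82, 10.79, 10.81 and 10.83 in controls of S49 (Bcl-2) cells at 48 h. At 24 h these cells had 11.39, 11.53, 10.54 and 11.61 with dex and 11.03, 10.97, 10.91 and 10.96 in controls. In S49 (Neo) cells the values were 10.79, 10.95, 10.89 and 10.92 with dex and 10.46, 10.65, 10.53 and 10.58 in controls at 24 h, and 11.09, 11.10, 11.17 and 11.05 with dex and 10.44, 10.48, 10.36 and 10.47 in controls at 48 h. The groups overlapped only in S49 (Bcl-2) cells at 24 h, through the library that stood apart, which held the lowest value of 10.54. Ppt1 rose by 1.28 ± 0.12 in S49 (Bcl-2) cells and by 0.66 ± 0.12 in S49 (Neo) cells at 48 h. The 24 h calls, 0.30 ± 0.12 (adjusted p = 0.0345) and 0.33 ± 0.12 (adjusted p = 0.0277), did not hold when some single libraries were left out. Without the library that stood apart the S49 (Bcl-2) change was 0.54 (adjusted p = 2.99e-11), while other omissions gave an adjusted p of up to 0.181 without dex replicate 4 in S49 (Bcl-2) cells and up to 0.0727 without control replicate 1 in S49 (Neo) cells.

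All 7 membrane and secreted genes tested were higher in S49 (Bcl-2) cells at both times, and 7 and 6 of them in S49 (Neo) cells at 24 and 48 h. Of all genes tested, 32.5% and 33.9% were higher in S49 (Bcl-2) cells at 24 and 48 h, and 25% and 27.3% in S49 (Neo) cells. Laptm5, a lysosomal membrane protein of blood cells that takes part in the turnover of antigen receptors, stood at 14.37, 14.60, 14.77 and 14.62 with dex and at 13.37, 13.35, 13.34 and 13.32 in controls of S49 (Bcl-2) cells at 24 h. After 48 h it stood at 15.08, 15.17, 15.11 and 15.23 with dex and 13.06, 13.11, 13.25 and 13.32 in controls. In S49 (Neo) cells the values were 14.44, 14.54, 14.58 and 14.69 with dex and 13.93, 13.85, 13.88 and 14.01 in controls at 24 h, and 14.90, 14.91, 15.09 and 14.99 with dex and 13.86, 13.77, 13.83 and 13.96 in controls at 48 h. Controls of S49 (Bcl-2) cells lay below controls of S49 (Neo) cells at each time, while the dex groups of the lines overlapped at both times. Laptm5 rose by 1.24 ± 0.07 and 1.96 ± 0.07 in S49 (Bcl-2) cells, or 2.37-fold and 3.9-fold, and by 0.64 ± 0.07 and 1.12 ± 0.07 in S49 (Neo) cells, or 1.56-fold and 2.17-fold.

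Lamp2, a major membrane glycoprotein with an isoform that serves as receptor in chaperone-mediated autophagy, was at 13.89, 13.98, 11.76 and 13.94 with dex and at 12.61, 12.73, 12.76 and 12.68 in controls of S49 (Bcl-2) cells at 24 h. At 48 h it was at 13.81, 13.76, 13.77 and 13.78 with dex and 12.82, 12.86, 13.07 and 13.13 in controls. S49 (Neo) cells had 14.01, 14.09, 14.12 and 14.03 with dex and 12.52, 12.66, 12.69 and 12.55 in controls at 24 h, and 14.14, 14.23, 14.13 and 14.08 with dex and 12.75, 12.82, 12.90 and 12.93 in controls at 48 h. Only the library that stood apart, at 11.76, lay below controls. With it, Lamp2 rose by 0.70 ± 0.26 (adjusted p = 0.021) at 24 h in S49 (Bcl-2) cells, and without it by 1.24 (adjusted p = 2.32e-17). The other increases were 0.81 ± 0.26 in S49 (Bcl-2) cells at 48 h and 1.46 ± 0.26 and 1.30 ± 0.26 in S49 (Neo) cells, and the wide errors carry that library, since the spread is shared by all groups. Fitted on the S49 (Bcl-2) libraries alone, neither the 24 h call (adjusted p = 0.104) nor the 48 h call (adjusted p = 0.0588) was made.

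Grn, at chr11:102430315-102437048 on the plus strand, codes for progranulin, a secreted and lysosomal protein that is cut into granulins. It stood at 11.55, 11.74, 12.01 and 11.90 with dex and 10.53, 10.56, 10.67 and 10.80 in controls of S49 (Bcl-2) cells at 24 h, and at 12.36, 12.41, 12.31 and 12.38 with dex and 11.16, 11.12, 11.29 and 11.48 in controls at 48 h. Grn in S49 (Neo) cells stood at 10.91, 10.91, 10.92 and 11.06 with dex and 10.63, 10.56, 10.51 and 10.67 in controls at 24 h, and at 11.12, 11.08, 11.19 and 11.25 with dex and 11.11, 10.91, 11.11 and 11.29 in controls at 48 h. The groups were separate except in S49 (Neo) cells at 48 h. Grn rose by 1.16 ± 0.09 and 1.10 ± 0.09 in S49 (Bcl-2) cells and by 0.36 ± 0.09 in S49 (Neo) cells at 24 h, and its S49 (Neo) change at 48 h was 0.05 ± 0.09 (adjusted p = 0.65). Lamp1, the partner of Lamp2 in the membrane, rose by 0.40 and 0.81 in S49 (Bcl-2) cells and by 0.39 and 0.57 in S49 (Neo) cells. Scarb2, an abundant protein of the lysosomal membrane, Mcoln1, its calcium channel, and Laptm4a were higher in all 4 comparisons, by 0.24 to 0.68. At 24 h in S49 (Bcl-2) cells Laptm4a rose by 0.35, and by 0.54 without the library that stood apart.

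**Figure D2:**
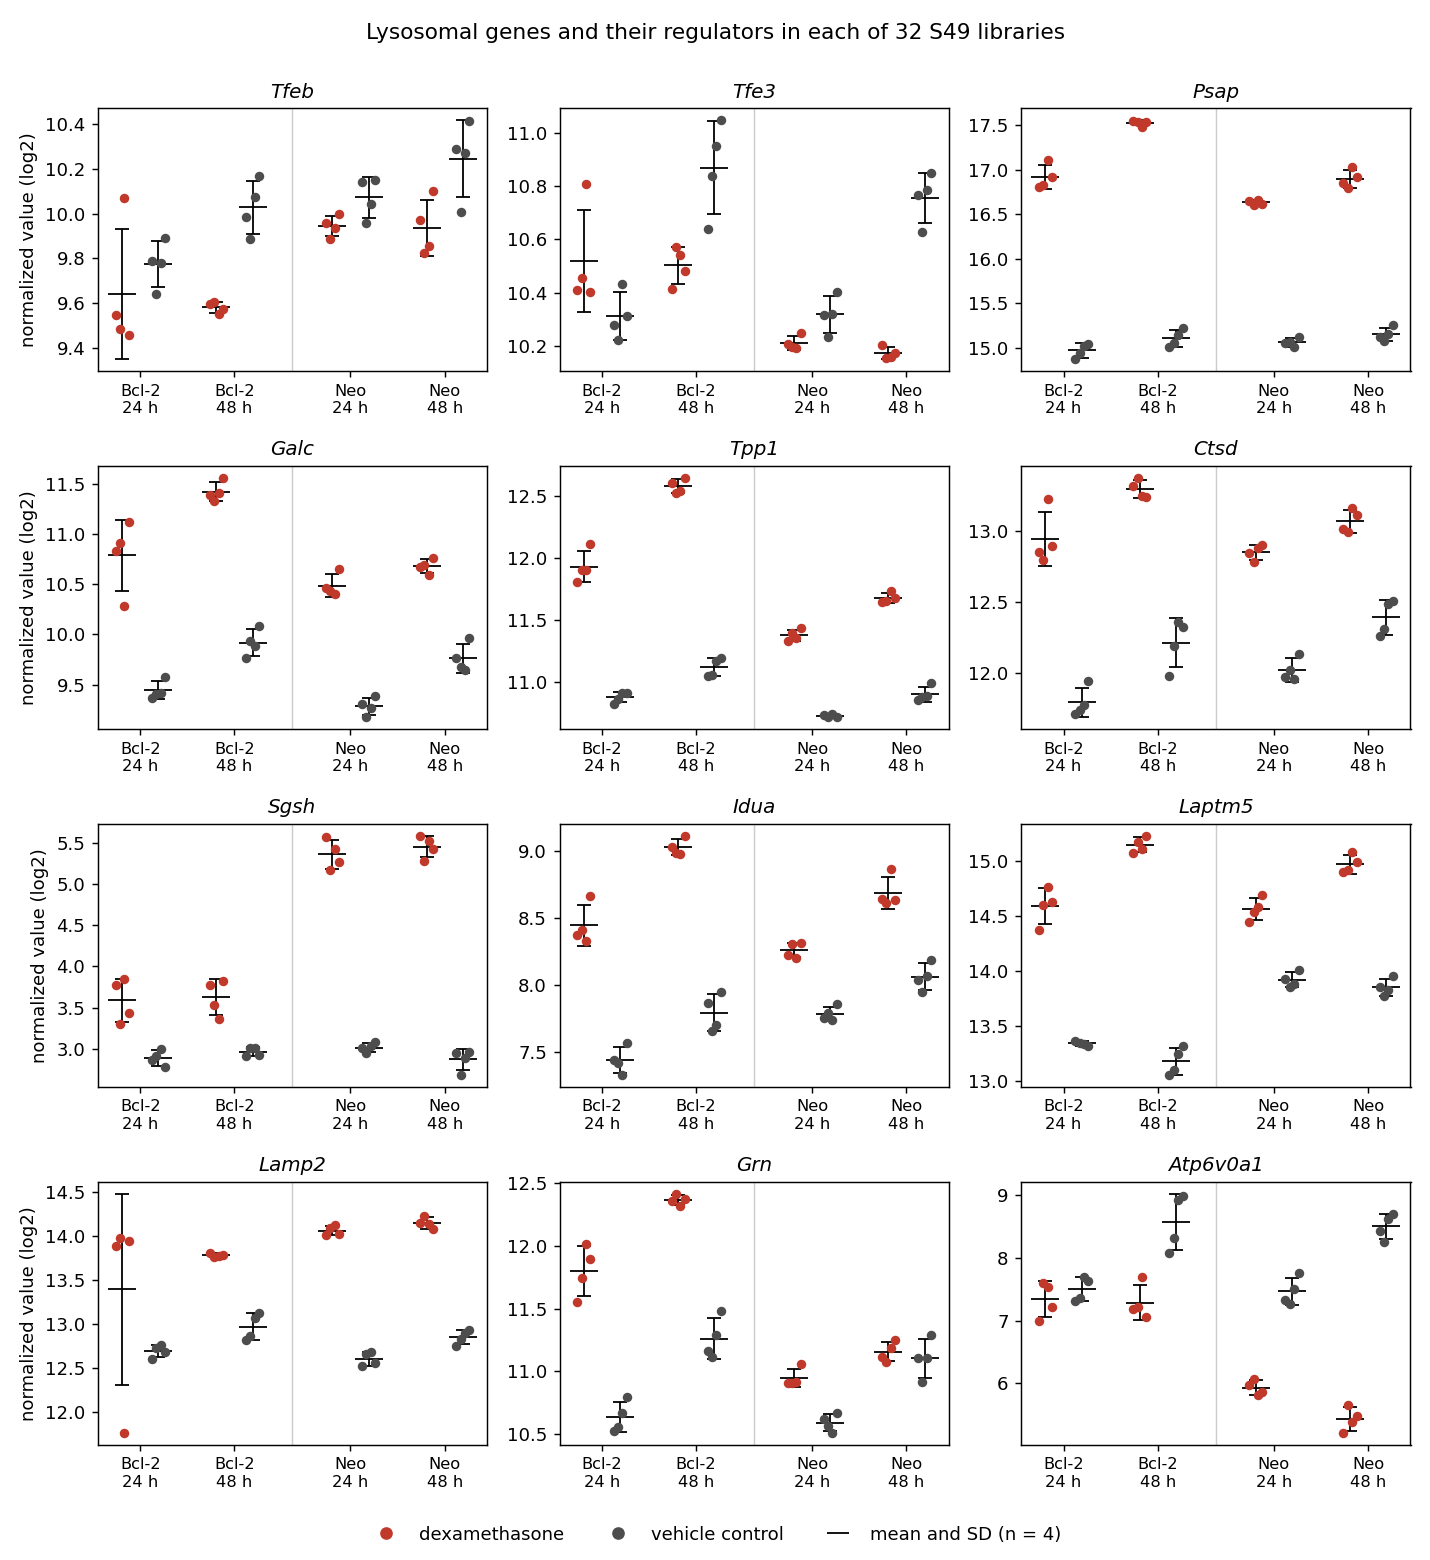
Normalized log2 value of 12 genes in each of the 32 libraries (points, red for dex and grey for vehicle control), with the mean and SD of each group of 4 (bars), by line and time, each panel on its own axis. Psap, Tpp1, Ctsd, Idua and Laptm5 show dex libraries above all controls in each line and time, the lone low Lamp2 point of 11.76 is the library that stood apart, and Atp6v0a1 has its lowest points in S49 (Neo) cells with dex.

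Subunits of the proton pump did not move as one. Of 8 tested, 3 were higher and 2 lower in S49 (Bcl-2) cells at 24 h, 4 and 2 at 48 h, 2 and 2 in S49 (Neo) cells at 24 h, and 3 and 2 at 48 h. These counts lie near the shares over all genes tested, of which 32.5%, 33.9%, 25% and 27.3% were higher in the 4 comparisons. Atp6v0d1, a subunit of the membrane sector, had 12.07, 12.05, 12.44 and 12.13 with dex and 11.28, 11.23, 11.31 and 11.32 in controls of S49 (Bcl-2) cells at 24 h, and 12.08, 12.10, 11.98 and 12.04 with dex and 11.41, 11.47, 11.54 and 11.58 in controls at 48 h. The S49 (Neo) values were 11.82, 11.82, 11.86 and 11.95 with dex and 11.15, 11.25, 11.19 and 11.26 in controls at 24 h, and 11.99, 12.01, 11.93 and 12.06 with dex and 11.32, 11.32, 11.51 and 11.51 in controls at 48 h. Atp6v0d1 rose without overlap in each, by 0.89 ± 0.06 and 0.55 ± 0.06 in S49 (Bcl-2) cells and by 0.65 ± 0.06 and 0.58 ± 0.06 in S49 (Neo) cells. Atp6v0e, another subunit of that sector, was higher in S49 (Bcl-2) cells at both times (0.20, or 0.12 without the library that stood apart, and 0.38) and in S49 (Neo) cells at 48 h (0.20), and Atp6v1b2 of the cytosolic sector in S49 (Bcl-2) cells at 48 h (0.22). Atp6ap1, an accessory subunit, was higher in all 4 comparisons, by 0.36 to 0.71.

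Atp6v0a1, at chr11:101009452-101063719 on the plus strand, codes for an isoform of the large membrane subunit that anchors the pump, and it fell further than any other gene of the 44 in S49 (Neo) cells at both times and in S49 (Bcl-2) cells at 48 h. It stood at 5.98, 6.07, 5.81 and 5.86 with dex and at 7.33, 7.27, 7.50 and 7.76 in controls of S49 (Neo) cells at 24 h. At 48 h it stood at 5.21, 5.66, 5.38 and 5.48 with dex and 8.43, 8.26, 8.61 and 8.69 in controls. In S49 (Bcl-2) cells the values were 7.00, 7.60, 7.54 and 7.21 with dex and 7.31, 7.36, 7.69 and 7.63 in controls at 24 h, and 7.18, 7.21, 7.69 and 7.06 with dex and 8.08, 8.32, 8.92 and 8.98 in controls at 48 h. The S49 (Bcl-2) groups overlapped at 24 h and were separate at 48 h, and the controls of both lines lay higher at 48 h than at 24 h. Atp6v0a1 fell by 1.54 ± 0.17 and 3.06 ± 0.17 in S49 (Neo) cells at 24 and 48 h, to 0.345 and 0.120 times the control, and by 1.29 ± 0.17 in S49 (Bcl-2) cells at 48 h, to 0.410 times the control. Its change in S49 (Bcl-2) cells at 24 h was -0.16 ± 0.17 (adjusted p = 0.414). Of the cytosolic subunits, Atp6v1h was lower in 3 comparisons (-0.49 and -0.18 in S49 (Bcl-2) cells at 24 and 48 h and -0.24 in S49 (Neo) cells at 24 h), Atp6v1c1 in S49 (Bcl-2) cells at 24 h (-0.35, or -0.19 without the library that stood apart) and Atp6v1a in S49 (Neo) cells at 48 h (-0.24).

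The change with dex was more positive in S49 (Bcl-2) cells than in S49 (Neo) cells for many of these genes, tested as the difference between the 2 changes. A more positive change can be a larger rise or a smaller fall. At 48 h, 25 of the 44 genes had the more positive change in S49 (Bcl-2) cells and 1, Sgsh, in S49 (Neo) cells, where 19.9% and 20.9% of all genes tested were called in the 2 directions. At 24 h it was 11 and 1 of the 44 (11% and 8.51% of all genes), and 18 and 1 with the replicate number as a block. In the main fit Sgsh is the 1 gene at 24 h as well. Only the S49 (Neo) dex libraries brought it over the filter, so its calls are no test. Without the library that stood apart, 16 and 2 were called at 24 h, and 11 and 4 with GC-corrected values. The median difference of the 44 genes was 0.30 at 48 h and 0.16 at 24 h, where the medians over all genes were 0.00 and -0.02.

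At 48 h the difference was 0.67 ± 0.08 for Psap, 0.85 ± 0.10 for Laptm5, 0.68 ± 0.07 for Tpp1, 0.62 ± 0.18 for Ppt1, 0.61 ± 0.11 for Idua and 0.58 ± 0.16 for Galc. The widest differences in this direction were those of Atp6v0a1 (1.78 ± 0.25, adjusted p = 1.63e-06), which fell less in S49 (Bcl-2) cells, and Grn (1.05 ± 0.12, adjusted p = 7.86e-08), which rose in S49 (Bcl-2) cells alone at that time. Both were called at 24 h too, at 1.37 ± 0.25 and 0.81 ± 0.12. Sgsh had the opposite sign at both times, with -1.65 at 24 h and -1.93 at 48 h, which is a description, since the S49 (Neo) dex libraries alone brought it over the filter. For Lamp2 the difference was -0.76 ± 0.37 at 24 h and -0.48 ± 0.37 at 48 h and was not called. Without the library that stood apart the 24 h difference was -0.22 (adjusted p = 0.034), and the 48 h difference was called in the 48 h libraries alone (-0.48, adjusted p = 0.000106) and with library quality weights (-0.41, adjusted p = 4.01e-05). Tfeb did not pass the test, at -0.01 ± 0.14 and -0.14 ± 0.14, and Tfe3 at 48 h did not either, at 0.22 ± 0.11, but was called with the replicate block within line and time (adjusted p = 0.0434), with library quality weights (0.24, adjusted p = 0.00454) and with GC-corrected values (adjusted p = 0.0373). The 24 h call for Tfe3 (0.31 ± 0.11, adjusted p = 0.042) was lost without the library that stood apart (adjusted p = 0.0536) and after quantile normalization (adjusted p = 0.0657).

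**Figure D3:**
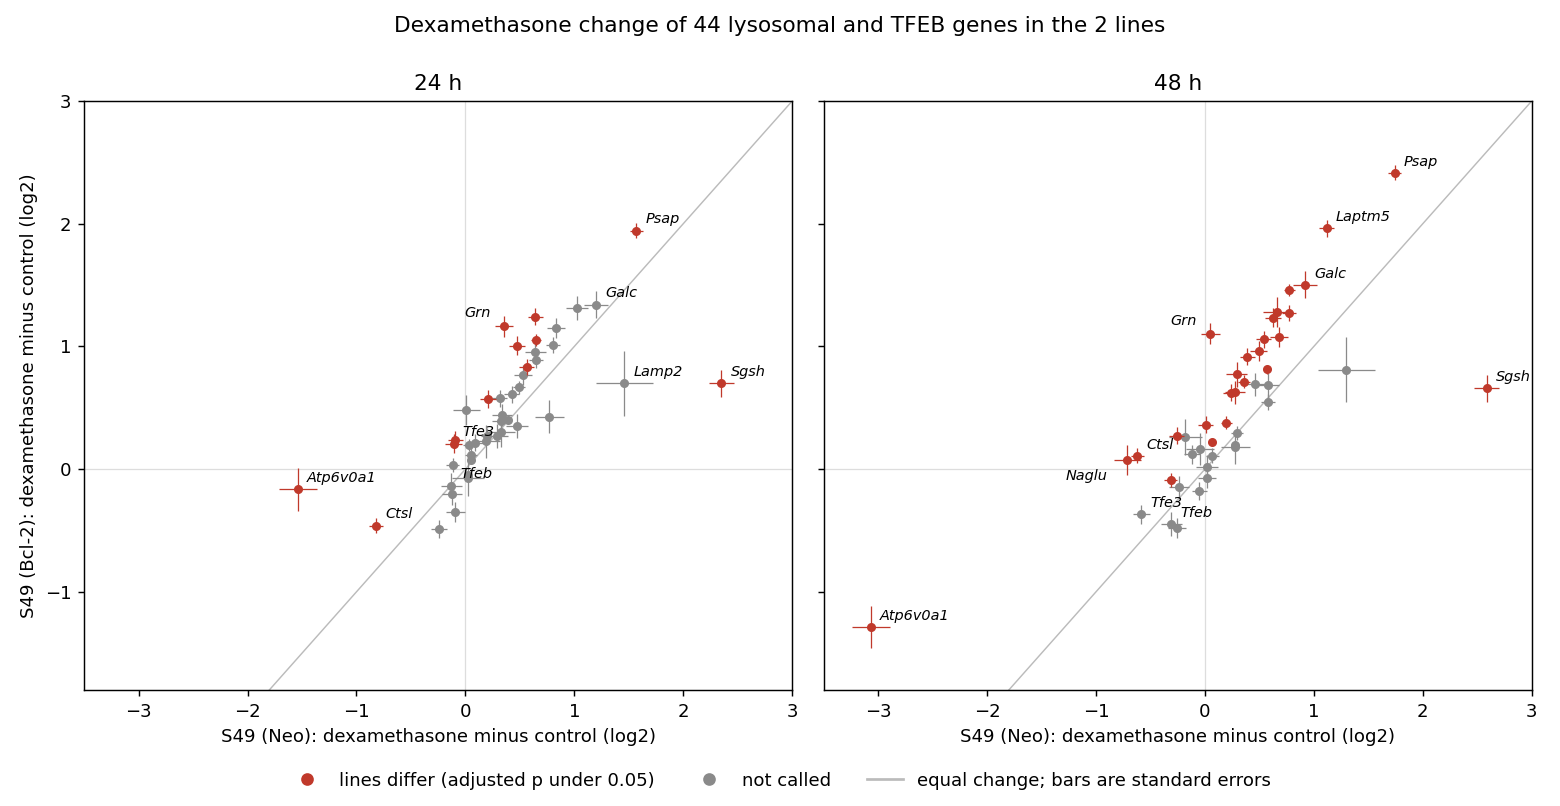
Change with dex in S49 (Bcl-2) cells (vertical axis) against that in S49 (Neo) cells (horizontal axis), both in log2, for the 44 genes tested at 24 h (left) and 48 h (right), with SE bars, in red where the difference between the lines had an adjusted p below 0.05. At 48 h most red points, such as Psap, Laptm5 and Grn, lie above the line of equal change, and Sgsh, whose call is no test, lies below it.

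Between the controls of the lines, the genes were called in both directions. Without dex, 8 of the 44 genes were higher and 8 lower in S49 (Bcl-2) cells than in S49 (Neo) cells at 24 h (12.9% and 14% of all genes tested), and 9 were higher and 5 lower at 48 h (11.7% and 14.2%). The median difference was 0.03 at 24 h and 0.05 at 48 h. Laptm5 was lower in S49 (Bcl-2) controls at both times (-0.58 ± 0.07 and -0.67 ± 0.07), as was Galns (-0.60 ± 0.10 and -0.72 ± 0.10). Ppt1 and Ctsl were higher in S49 (Bcl-2) controls at both times, by 0.41 ± 0.12 and 0.38 ± 0.12 for Ppt1 and by 0.28 ± 0.06 and 0.35 ± 0.06 for Ctsl. In the 24 h libraries alone the Ppt1 difference was not called (adjusted p = 0.104). The controls of Psap differed by -0.09 ± 0.06 and -0.04 ± 0.06, and those of Grn by 0.04 ± 0.09 and 0.15 ± 0.09, none of which was called. Those of Sgsh differed by -0.12 and 0.10, which is a description with no test.

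The change with dex was also compared between 48 and 24 h within each line. In S49 (Bcl-2) cells the change was more positive at 48 h for 12 of the 44 genes and more negative for 6 (17.1% and 21.3% of all genes tested), and in S49 (Neo) cells for 4 and 6 (8.72% and 10.5%). Without the library that stood apart, 17 and 10 were called in S49 (Bcl-2) cells. Laptm5 gained in both lines, by 0.72 ± 0.10 in S49 (Bcl-2) cells and 0.47 ± 0.10 in S49 (Neo) cells, and Lamp1 did too, by 0.41 ± 0.05 and 0.18 ± 0.05. Ppt1 gained 0.98 ± 0.18 in S49 (Bcl-2) cells, with 0.74 without the library that stood apart. Psap gained 0.47 ± 0.08 in S49 (Bcl-2) cells, a call that was lost after quantile normalization (adjusted p = 0.194), and 0.17 ± 0.08 in S49 (Neo) cells, which was not called. The change of Atp6v0a1 was more negative at 48 h, by 1.12 ± 0.25 in S49 (Bcl-2) cells and 1.53 ± 0.25 in S49 (Neo) cells. In S49 (Bcl-2) cells its means at 24 and 48 h were 7.34 and 7.29 with dex, and 7.50 and 8.57 in controls. The difference in this line thus came mostly from higher controls at 48 h. In S49 (Neo) cells the mean with dex fell from 5.93 to 5.43, and the control mean rose by more than this. Tfe3, Gla and Arsa had the more negative change at 48 h in both lines, with differences of -0.57, -0.87 and -0.54 in S49 (Bcl-2) cells, and of -0.48, -0.58 and -0.73 in S49 (Neo) cells. Controls of these genes had higher means at 48 h than at 24 h in both lines. The mean of Arsa with dex was higher at 48 h as well. In S49 (Bcl-2) cells Arsa averaged 10.82 and 11.07 with dex at 24 and 48 h, and 9.51 and 10.30 in controls.

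Other genes of the same compartment, listed by function, were read in the same fit. Over all genes tested, 32.5% were higher and 35.1% lower in S49 (Bcl-2) cells at 24 h, and 33.9% and 35.2% at 48 h. In S49 (Neo) cells these shares were 25% and 25.5% at 24 h, and 27.3% and 28% at 48 h. Of 24 other lysosomal hydrolases tested, 17 were higher and none lower in S49 (Bcl-2) cells at 24 h, 14 and 3 at 48 h, and 13 and none, then 10 and 4, in S49 (Neo) cells at 24 and 48 h. Among them Acp5, the tartrate-resistant acid phosphatase, rose by 2.23 and 2.40 in S49 (Bcl-2) cells and by 1.82 and 2.04 in S49 (Neo) cells at 24 and 48 h. Dpp7, a dipeptidyl peptidase, rose at 48 h by 1.85 in S49 (Bcl-2) cells and 1.17 in S49 (Neo) cells. Of 26 other membrane proteins and transporters, 18 were higher and 3 lower in S49 (Bcl-2) cells at 48 h, and 12 and 5 in S49 (Neo) cells. Ctns, the cystine exporter, rose there by 1.19 in S49 (Bcl-2) cells and 0.71 in S49 (Neo) cells, and Clcn7, the chloride and proton exchanger, by 0.91 and 0.64.

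Of 13 other V-ATPase subunits and assembly factors, 8 were higher and 1 lower at 48 h in each line. Atp6v0a2, another isoform of the subunit that Atp6v0a1 codes for, was higher in all 4 comparisons, by 0.11 and 0.37 in S49 (Bcl-2) cells and by 0.15 and 0.46 in S49 (Neo) cells at 24 and 48 h. In the list for tagging and sorting of hydrolases by mannose 6-phosphate, 8 of 19 were higher and 2 lower in S49 (Bcl-2) cells at 48 h, and 7 and 3 in S49 (Neo) cells, where 33.9% and 27.3% of all genes were higher. Sort1, a sorting receptor that also carries prosaposin and progranulin, was higher with dex in S49 (Bcl-2) cells at both times (1.31 and 1.27) and lower at 48 h in S49 (Neo) cells (-0.65), a difference between the lines of 1.92 at 48 h (adjusted p = 3.52e-09). Of 18 genes for tethering and positioning, 10 were higher and 2 lower in S49 (Bcl-2) cells at 48 h and 6 and 2 in S49 (Neo) cells, and Arl8a, a small GTPase that moves lysosomes outward, fell in all 4 comparisons (-0.78 and -1.20 in S49 (Bcl-2) cells and -0.98 and -1.79 in S49 (Neo) cells at 24 and 48 h).

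Genes that set the activity of TFEB and TFE3 showed no common direction. Of 24 tested, 8 were higher and 11 lower in S49 (Bcl-2) cells at 24 h, 11 and 7 at 48 h, 6 and 4 in S49 (Neo) cells at 24 h, and 5 and 6 at 48 h, near the shares over all genes (32.5%, 33.9%, 25% and 27.3% higher and 35.1%, 35.2%, 25.5% and 28% lower). Flcn, folliculin, which acts with the Rag GTPases in the control of TFEB, rose by 0.84 and 1.54 in S49 (Bcl-2) cells and by 0.57 and 0.86 in S49 (Neo) cells at 24 and 48 h. Mtor, the kinase itself, was higher in all 4 comparisons, by 0.17 to 0.72, and so was Zkscan3, a repressor of autophagy and lysosome genes, by 0.36 to 0.95. Among 4 cathepsin inhibitors, Cst3 and Cstb were higher and Cst7, which acts on cathepsin C, lower in all 4, with Cst7 at -1.66 in S49 (Bcl-2) cells and -2.23 in S49 (Neo) cells at 48 h. These RNA values say nothing of where the TFEB protein was or of enzyme activity, and neither was measured in these libraries.

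**Figure D4:**
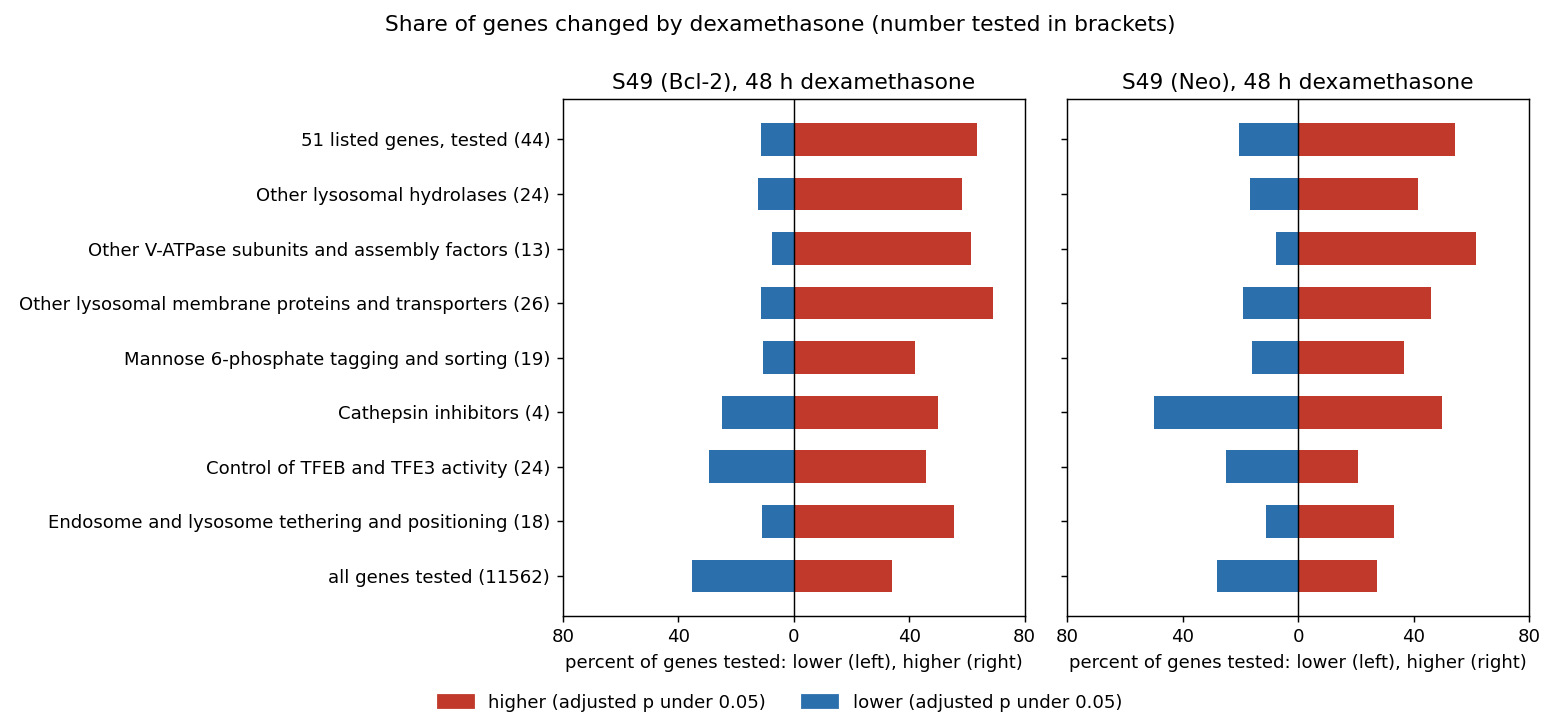
Percent of genes tested that were called higher (red, to the right) or lower (blue, to the left) after 48 h of dex in S49 (Bcl-2) cells (left) and S49 (Neo) cells (right), for the 44 listed genes tested, 7 related lists and all genes, with the number tested in brackets. The listed genes show 63.6% higher and 11.4% lower in S49 (Bcl-2) cells, and 54.5% higher and 20.5% lower in S49 (Neo) cells, while both directions are about equal over all genes.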

How the data were processed

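Poly(A) RNA of 32 libraries, 4 in each of 8 groups, was sequenced as paired reads. The authors trimmed the reads with Trim Galore, aligned them with STAR to mm10, counted them with featureCounts and normalized them with DESeq2, and they deposited log2 normalized values per gene. The study states the sequencing depth only as a range over samples. How the log2 values were computed, the pseudocount and the reads behind each value are not given in the sources used here, so no counting interval is given. All 32 columns were matched to a sample by name.

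Values were fitted with limma (version 3.58.1, R 4.3.3), with 1 mean per group over all 32 libraries and a trend of the spread on the mean. Genes whose mean was at least 3.46, which is log2 of 10 plus 1 on the deposited scale and no read count, were tested (11562 of 24538), and p-values were adjusted by the Benjamini-Hochberg method over all of them within each comparison. The fit was tested on simulated data. Standard errors come from this shared spread. Differences between lines or times were fitted as differences of the 2 changes, which share no controls. The control comparisons use the same control libraries as the dex comparisons.

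The members and lists were chosen with earlier results of these data known. Library values are given for Tfeb, Tfe3 and, in each other role, the 2 tested genes with the largest mean change over the 4 dex comparisons, and for the genes with the most extreme called differences between the lines at 48 h, up to 2 in each direction. Of each related list, up to 4 genes with the smallest p in S49 (Bcl-2) cells at 48 h could be named, and C1qc, Lyz2, Itgam and Mrc1 as markers over the filter. Some genes of these lists are not reported here by name. Equal replicate numbers in the labels deviated together in S49 (Bcl-2) cells at 24 h (correlations of dex with control deviations 0.198 to 0.225 across genes). The numbers may therefore pair libraries there, but the main fit and its standard errors use no pairing. The replicate block was run only as an alternative, in which 25 values of single genes newly passed the threshold and 0 dropped out. Alternatives were other filters, normalizations and spreads, library weights, the replicate block and leaving out each library in turn.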

Additional observations from a re-analysis of the deposited data

Results flagged for a closer look

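Among the genes shown by library, 6 of 136 groups of 4 held a value whose gap to the nearest library, divided by the range of the group, passed Dixon's critical value for 4 values. Chance flags about 1 in 20 groups. In S49 (Bcl-2) cells after 24 h of dex, replicate 3 was apart in Tfeb (0.856), Tfe3 (0.871) and Lamp2 (0.958), and over all 44 genes it held 13 of the 27 such values found in 352 groups. The others were replicate 3 of S49 (Bcl-2) cells at 48 h with dex in Psap (0.894), replicate 3 of S49 (Neo) cells at 48 h with dex in Idua (0.885) and replicate 4 of S49 (Neo) cells at 24 h with dex in Grn (0.924).

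The change with dex differed between the lines at 24 h, in S49 (Bcl-2) minus S49 (Neo) cells, for Tfe3 (0.31), Psap (0.37), Tpp1 (0.40), Sgsh (-1.65), Idua (0.53), Man2b1 (0.27), Laptm5 (0.60), Atp6v0a1 (1.37) and Grn (0.81). At 48 h it differed for Psap (0.67), Galc (0.58), Tpp1 (0.68), Ctsd (0.40), Sgsh (-1.93), Idua (0.61), Man2b1 (0.52), Manba (0.47), Npc2 (0.50), Ppt1 (0.62), Laptm5 (0.85), Atp6v0a1 (1.78) and Grn (1.05). Between 48 and 24 h it differed in S49 (Bcl-2) cells for Tfe3 (-0.57), Psap (0.47), Tpp1 (0.40), Npc2 (0.26), Ppt1 (0.98), Laptm5 (0.72), Atp6v0a1 (-1.12) and Atp6v0d1 (-0.34), and in S49 (Neo) cells for Tfe3 (-0.48), Laptm5 (0.47) and Atp6v0a1 (-1.53). All are log2 differences with a limma adjusted p below 0.05 over all genes tested. The Sgsh values are a description, since only the S49 (Neo) dex libraries brought its mean over the filter. The Man2b1 difference between the lines at 24 h was lost in the libraries of that time alone (adjusted p = 0.0951), after median centring (0.0649), with no filter (0.0676) and with GC-corrected values (0.203). The Npc2 difference between the times was lost after median centring (adjusted p = 0.0608) and in the S49 (Bcl-2) libraries alone (0.108).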

How the results depend on the processing

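The counts of genes called with dex stayed within 1.5 times under every alternative run. Over 10547 values of single genes, 9913 kept their call and its direction or stayed uncalled. Of the others, 376 newly passed the threshold, 245 no longer did and 13 turned round. With 1 library left out, the number of the 44 genes called was 33 to 37 and 32 to 34 in S49 (Bcl-2) cells at 24 and 48 h, 28 to 30 and 31 to 33 in S49 (Neo) cells, 9 to 18 and 23 to 27 for the difference between the lines at 24 and 48 h, 16 to 27 and 9 to 12 for the difference between the times in S49 (Bcl-2) and S49 (Neo) cells, and 12 to 15 and 11 to 14 between controls at 24 and 48 h. Library quality weights called 29 for the lines at 24 h, 30 for the times in S49 (Neo) cells and 26 and 23 between controls at 24 and 48 h. The replicate block called 19 for the lines at 24 h and moved no other count by over 1.5 times. A correction of each library for transcript GC content, added after seeing the data, called 19 for the lines at 24 h and 17 for the times in S49 (Neo) cells when joined with the replicate block. The libraries of S49 (Neo) cells alone gave 23 for the times. With library quality weights the direction turned for Asah1 with dex in S49 (Bcl-2) cells at 24 h (0.22), for Asah1 (0.20), Ppt1 (0.21) and Atp6v1a (0.10) between the lines at 24 h, and for Lamp2 (-0.37) and Atp6v1a (-0.12) between the times in S49 (Bcl-2) cells. Over the libraries left out in turn, values ran between -0.20 and 0.21 for Asah1 with dex in S49 (Bcl-2) cells at 24 h, between -0.14 and 0.21 for Ppt1 and -0.16 and 0.11 for Atp6v1a between the lines at 24 h, and between -0.43 and 0.31 for Lamp2 and -0.13 and 0.14 for Atp6v1a between the times in S49 (Bcl-2) cells, the direction turning each time without replicate 3 of the 24 h dex group. With values corrected for GC content, with or without the block, Atp6v1h turned between the times in S49 (Bcl-2) cells (-0.11). The cause was not tested. In the other lines and times, equal replicate numbers correlated at 0.0334 to 0.476, not all above 0.1, and 3 of 4 numbers correlated best with their own. The reads behind each value are not known, so low genes such as Sgsh carry an error that cannot be split into counting and biological parts.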

Other observations

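Within the related lists, Prkcd, a kinase that can act upstream of TFEB, was higher with dex in S49 (Bcl-2) cells by 0.40 and 0.84 at 24 and 48 h, and its changes in S49 (Neo) cells were -0.00 and -0.04. The difference between the lines was 0.40 at 24 h and 0.88 at 48 h, and it was chosen here after its values were seen. Ctss, whose mean lay below the filter, averaged 3.31 with dex and 3.72 in controls of S49 (Bcl-2) cells at 48 h, and 2.83 with dex and 2.86 in controls of S49 (Neo) cells, and it was not tested.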
